A study of Rattus norvegicus with 12 samples.

Results

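Mitochondrial ribosomal protein genes were followed across 12 bulk RNA sequencing libraries of rat cells labelled PC12. Members were all rows of the count table whose symbol begins with Mrpl or Mrps and a number, pseudogenes left out. This gave 75 rows of 30454, with 74 symbols, of which 72 rows had enough counts to be tested. By the usual structural assignment of mammalian mitoribosomes, 25 tested members belong to the small subunit and 46 to the large subunit. Mrps36 is counted with neither, since it is also listed as Kgd4, a subunit of the 2-oxoglutarate dehydrogenase complex. The libraries formed 3 groups of 4. In the rTMS_MSC group, cells went through oxygen-glucose deprivation and reoxygenation (OGDR) and received mesenchymal stem cells together with 10 Hz repetitive transcranial magnetic stimulation. The MSC group had the same deprivation and the stem cells without stimulation, and the OGDR group had the deprivation alone. RNA was taken 48 h after treatment. All 3 groups were deprived of oxygen and glucose, and an undeprived group was not analysed here. The labels name neither the species the stem cells came from nor how they met the cultured cells, nor do they say whether the 4 libraries of a group are separate cultures. All p-values therefore measure only the spread between these samples, which may be technical.

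The mitochondrial ribosome translates the 13 messenger RNAs of mitochondrial DNA, all of which encode subunits of the respiratory chain and ATP synthase. Its RNAs are transcribed in the organelle, whereas its proteins are encoded in the nucleus, made in the cytosol and imported. The small subunit decodes the messenger RNA, and the large subunit forms peptide bonds and passes the growing chain through an exit tunnel to the inner membrane. Compared with the bacterial ribosome, the mammalian mitoribosome has lost RNA and gained proteins, so that many of its proteins (27 of the tested members) have no bacterial counterpart, while 44 do.

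The libraries held 18246250 to 20471838 counts in genes, and 46228 to 66596 of these per library fell on members. Each tested member had between 3176 counts (Mrpl34) and 27158 counts (Mrpl12) over all 12 libraries. Levels are given as CPM, counts scaled to a common library size, with library sizes adjusted by the trimmed mean of M-values (TMM). CPM is not corrected for transcript length, so levels are compared between libraries and not between genes. Defining markers of the labelled cell type were near absent, as the 10 chromaffin genes checked summed to 3.08 to 5.79 CPM per library and Ddc had no count in any library. The Schwann and glial list of 6 genes summed to 742 to 930 CPM. In bulk RNA, fewer cells of a type and less RNA per cell cannot be told apart. A library of each treated group stood apart for these genes. Of the 72 tested members, 52 had their highest level of all 12 libraries in rTMS_MSC 3, and 34 had their lowest in MSC 3. The median member lay 0.31 log2 units above its mean over all libraries in rTMS_MSC 3 and at -0.22 log2 units in MSC 3. Counts of called members are given with and without these libraries, and calls on other named genes of the pathway that were lost without both of them are stated beside the gene. Both libraries were picked from the members' own values, so leaving them out is not an independent check.

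Promoter sequences were examined first, because all member estimates were above 0 in rTMS_MSC against MSC. RefSeq windows of 300 bases on build GRCr8, from 250 bases before to 50 bases after the annotated start, matched 59 of the 74 member symbols. They were searched on both strands for motifs of factors known to drive nuclear genes for mitochondrial proteins, namely GCGCANGCG for nuclear respiratory factor 1 (NRF1), CCGGAAG for ETS factors such as GABP, and AAGATGGCG for YY1. Matches of different motifs shared no base in any member window. Windows are printed for Mrps18a, which had the largest estimated rise in rTMS_MSC over MSC, for Mrpl36, which holds the same ETS and YY1 letters, for Mrpl57, which like Mrps18a passed the test in opposite directions in different comparisons, and for Mrpl45, whose level was above that of OGDR in both treated groups. Capitals mark motif letters. The Mrps18a window lies at chr9:22367331-22367630 on the minus strand, that of Mrpl36 at chr1:31795072-31795371 on the minus strand, that of Mrpl57 at chr15:36086207-36086506 on the plus strand and that of Mrpl45 at chr10:82804789-82805088 on the plus strand.
Mrps18a: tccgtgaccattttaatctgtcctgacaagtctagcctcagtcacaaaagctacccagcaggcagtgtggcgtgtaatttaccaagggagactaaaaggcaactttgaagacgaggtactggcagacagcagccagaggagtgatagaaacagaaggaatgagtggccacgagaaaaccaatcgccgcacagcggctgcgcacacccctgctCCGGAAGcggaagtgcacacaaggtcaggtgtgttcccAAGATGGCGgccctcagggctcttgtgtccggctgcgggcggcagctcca
Mrpl36: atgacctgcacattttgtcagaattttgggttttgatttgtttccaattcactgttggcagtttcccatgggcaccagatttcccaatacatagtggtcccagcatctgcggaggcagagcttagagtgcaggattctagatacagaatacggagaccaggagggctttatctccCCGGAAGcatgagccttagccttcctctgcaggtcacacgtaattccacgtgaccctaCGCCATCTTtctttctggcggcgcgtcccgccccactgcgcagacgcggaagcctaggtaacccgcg
Mrpl57: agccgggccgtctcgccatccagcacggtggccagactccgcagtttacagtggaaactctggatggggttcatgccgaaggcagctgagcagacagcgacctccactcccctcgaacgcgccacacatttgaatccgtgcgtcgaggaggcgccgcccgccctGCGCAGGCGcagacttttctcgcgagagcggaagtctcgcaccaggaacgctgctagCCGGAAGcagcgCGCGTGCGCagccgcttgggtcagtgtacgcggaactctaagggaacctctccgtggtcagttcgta
Mrpl45: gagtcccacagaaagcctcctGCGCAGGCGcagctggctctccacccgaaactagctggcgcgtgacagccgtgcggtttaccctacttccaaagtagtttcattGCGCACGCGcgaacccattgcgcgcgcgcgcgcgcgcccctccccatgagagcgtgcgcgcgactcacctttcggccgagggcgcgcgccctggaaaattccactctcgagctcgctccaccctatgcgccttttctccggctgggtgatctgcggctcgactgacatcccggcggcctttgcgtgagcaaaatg

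In the Mrps18a window the ETS match began at base -38 and the YY1 match at base 1, counted from the annotated start, and in the Mrpl36 window the ETS match began at -75 and the YY1 match, on the opposite strand, at -17. Mrpl57 carried NRF1 matches at -86 and -17 and an ETS match at -29. Mrpl45 carried NRF1 matches at -229 and -145 only. Mrps10 and Mrps27, not printed here, also held both ETS and YY1 letters. Neither of them was called higher in rTMS_MSC over MSC, at log2 fold changes of 0.07 and 0.12. Over the 59 member windows, NRF1 letters were found in 12 (20.3%), ETS letters in 20 (33.9%) and YY1 letters in 8 (13.6%). Among the 11126 windows of all tested genes these shares were 12.8%, 17.0% and 3.43%, and among all 33469 windows 5.80%, 8.75% and 1.73%. Any of the motifs stood in 54.2% of member windows, 28.9% of windows of tested genes and 14.5% of all windows. Members that rose in rTMS_MSC over MSC held a motif in 9 of 17 windows, and tested members that were not called in 23 of 41. The ETS letters were in 7 of those 17 windows and in 13 of those 41, the YY1 letters in 3 and 5, and the NRF1 letters in 3 and 9. The median member window had 55.7% G and C and 18 CpG sites, against 60.3% and 20 for the windows of tested genes. A match describes letters only and is not a binding site.

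The summed level of all members was 2975, 3055, 3530 and 2949 CPM in rTMS_MSC 1 to 4, with 2644, 2771, 2503 and 2758 CPM in MSC 1 to 4, against 2889, 2944, 2736 and 2758 CPM in OGDR 1 to 4. The group means were 3127 ± 272 CPM in rTMS_MSC, 2669 ± 125 CPM in MSC and 2832 ± 101 CPM in OGDR (SD, n = 4 each). All 4 rTMS_MSC libraries were above all MSC libraries and, by a narrow margin, above all OGDR libraries, whereas the MSC and OGDR libraries overlapped. Members made up 0.309 ± 0.0214% of gene counts in rTMS_MSC, 0.268 ± 0.0110% in MSC and 0.285 ± 0.00801% in OGDR. Without the libraries numbered 3, the summed means were 2993 CPM in rTMS_MSC and 2725 CPM in MSC. Small subunit members summed to 971 ± 115 CPM in rTMS_MSC, 810 ± 43.4 CPM in MSC and 891 ± 19.2 CPM in OGDR, and large subunit members to 2126 ± 160 CPM, 1833 ± 84.0 CPM and 1915 ± 82.1 CPM in the same groups. Of the 72 tested members, 50 had group means in the order rTMS_MSC, OGDR, MSC, 13 in the order rTMS_MSC, MSC, OGDR, and 9 in the order OGDR, rTMS_MSC, MSC. With both libraries numbered 3 left out of the treated groups, rTMS_MSC had the highest mean for 49 members and MSC the lowest for 52, against 63 and 59 with all libraries.

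**Figure D1:**
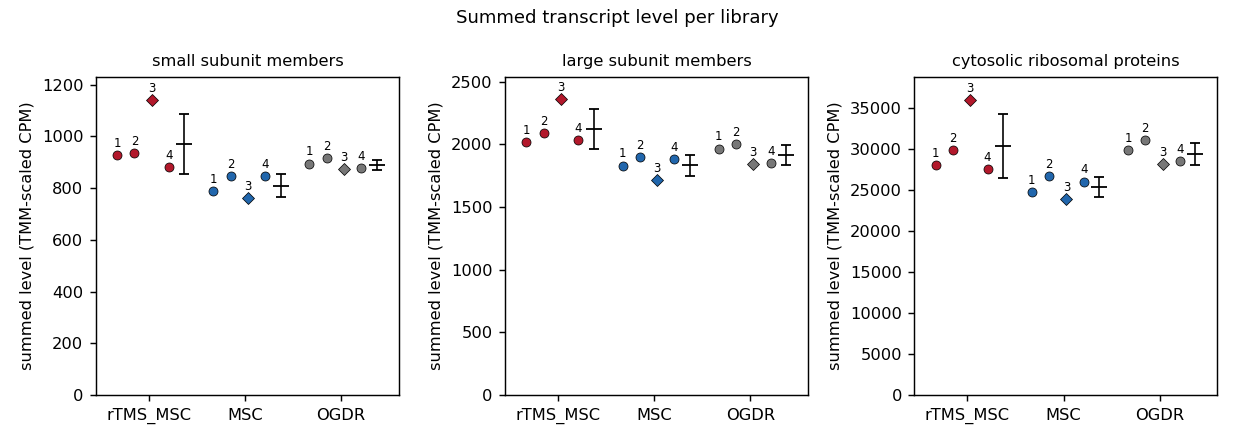
Summed TMM-scaled CPM per library (y axis) of small subunit members, large subunit members and cytosolic ribosomal protein genes in rTMS_MSC, MSC and OGDR (x axis). Points are libraries, numbered, with a diamond for replicate 3, and the bar beside them is mean ± SD (n = 4). In rTMS_MSC 3 the sums reached 1141 and 2361 CPM for the members and 35913 CPM for the cytosolic genes, the highest of the 12 libraries in each panel.

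The comparison of rTMS_MSC with MSC asks which transcripts differed when magnetic stimulation was added to the stem cells. Of the 72 tested members 22 rose, 10 of 25 in the small subunit and 12 of 46 in the large subunit, by edgeR's quasi-likelihood test with Benjamini-Hochberg adjustment over all 13692 tested genes (adjusted p under 0.05, as throughout). By that rule 7.14% of all tested genes rose and 10.9% fell, and no member fell. At an unadjusted p under 0.05, 46 members were higher and 0 lower, beside 2192 higher and 2453 lower of all 13692 tested genes. The Wald test of DESeq2 called 33 members higher and 0 lower, and it called 9.65% of all tested genes higher. All 72 estimates were above 0, with a median log2 fold change of 0.23 against 0.02 over all tested genes. They ran from 0.03 to 0.50. The 4 values of rTMS_MSC lay wholly above those of MSC for 22 members and wholly below for 0, while 8.25% of all tested genes were wholly above and 10.8% wholly below. The median was 0.23 in either subunit, and 12 of 44 members with a bacterial counterpart and 10 of 27 without one rose.

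Among small subunit members, Mrps35, a small subunit protein with no bacterial counterpart, measured 21.6, 23.7, 24.2 and 20.5 CPM in rTMS_MSC 1 to 4, against 15.3, 14.4, 17.0 and 18.4 CPM in MSC 1 to 4. Every rTMS_MSC library was above every MSC library, and the log2 fold change was 0.47 ± 0.109 (SE; adjusted p = 0.00737). Mrps21, the counterpart of bacterial bS21, measured 28.2, 28.8, 43.0 and 28.0 CPM in rTMS_MSC 1 to 4, against 21.3, 23.1, 20.9 and 25.3 CPM in MSC 1 to 4. Its groups did not overlap, yet rTMS_MSC 3 was far above the other 3 libraries of its group, and the fold change was 0.50 ± 0.129 (adjusted p = 0.0130). Mrps16, the counterpart of bacterial bS16, measured 25.9, 27.4, 34.6 and 26.1 CPM in rTMS_MSC 1 to 4, against 23.6, 20.9, 21.01 and 20.7 CPM in MSC 1 to 4. It rose by 0.40 ± 0.0995 (adjusted p = 0.0101), again with rTMS_MSC 3 highest. Mrps33 and Mrps23, both specific to mitochondria, rose by 0.43 ± 0.105 and 0.38 ± 0.103 (adjusted p = 0.0102 and 0.0163), and in both MSC 4 lay within the range of the rTMS_MSC libraries. Mrps33 averaged 43.0 ± 6.38 CPM in rTMS_MSC and 32.0 ± 4.63 CPM in MSC, and Mrps23 42.4 ± 5.53 CPM and 32.6 ± 5.17 CPM. The other 5 small subunit members that rose were Mrps7, Mrps12, Mrps15, Mrps28 and Mrps34, with estimates between 0.26 for Mrps7 and 0.41 for Mrps28. Mrps12 is the counterpart of the bacterial decoding-centre protein S12, and Mrps34 is a mitochondria-specific protein in which loss has been tied to human mitochondrial disease.

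In the large subunit, Mrps18a (ENSRNOG00000019511) had the smallest p. It is a mammalian relative of bacterial S18, and despite its name it sits in the large subunit. It measured 34.7, 41.1, 48.8 and 40.7 CPM in rTMS_MSC 1 to 4, against 30.6, 29.1, 27.9 and 29.1 CPM in MSC 1 to 4. The lowest rTMS_MSC library was above the highest MSC library, and the fold change was 0.50 ± 0.0894 (adjusted p = 0.00201). Its relatives Mrps18b and Mrps18c, which occupy the small subunit, did not pass, with estimates of 0.25 and 0.23. Mrpl36, a small late-assembling protein with a bacterial counterpart, measured 24.5, 22.5, 27.0 and 25.6 CPM in rTMS_MSC 1 to 4, against 18.2, 22.1, 18.9 and 15.5 CPM in MSC 1 to 4, and MSC 2 came close to rTMS_MSC 2 without overlap. It rose by 0.41 ± 0.107 (adjusted p = 0.0130). Mrpl45, which lines the tunnel exit and helps to tether the ribosome to the inner membrane, rose by 0.23 ± 0.0626 (adjusted p = 0.0154), with 116 ± 5.28 CPM in rTMS_MSC and 99.0 ± 6.71 CPM in MSC. Mrpl41, a mitochondria-specific protein, rose by 0.37 ± 0.0998 (adjusted p = 0.0162) and Mrpl10, which forms the base of the stalk that binds translation factors, by 0.26 ± 0.0724 (adjusted p = 0.0182). Mrpl10 averaged 58.0 ± 2.38 CPM in rTMS_MSC and 48.4 ± 2.81 CPM in MSC without overlap, while for Mrpl41 the lowest rTMS_MSC library was below the highest MSC library. Mrpl57, specific to mitochondria, measured 17.9, 20.4, 25.9 and 18.8 CPM in rTMS_MSC 1 to 4, against 16.2, 17.0, 12.9 and 14.0 CPM in MSC 1 to 4 and rose by 0.47 ± 0.133 (adjusted p = 0.0215). The other 6 were Mrpl13, Mrpl20, Mrpl30, Mrpl46, Mrpl54 and Mrpl58, with estimates between 0.23 for Mrpl13 and 0.42 for Mrpl54. Mrpl58 is a peptidyl-tRNA hydrolase built into the large subunit that can release stalled chains.

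Several members with many counts did not pass. Mrpl12, a stalk protein that also binds the mitochondrial RNA polymerase, measured 113, 123, 159.8 and 118 CPM in rTMS_MSC 1 to 4, against 104, 118, 102 and 108 CPM in MSC 1 to 4. rTMS_MSC 1 was below the highest MSC library, rTMS_MSC 4 was level with it, and the estimate was 0.25 ± 0.0879 (adjusted p = 0.0524). Mrpl17 had 0.21 ± 0.0915 (adjusted p = 0.117), and Mrpl3, a protein next to the peptidyl transferase centre, 0.13 ± 0.0611 (adjusted p = 0.138). Mrpl3 was above MSC in all 4 rTMS_MSC libraries. Among the members with the fewest counts, Mrpl40 had 0.31, Mrpl33 0.26, Mrpl1 0.28, Mrps10 0.07 and Mrpl34 0.04, with adjusted p between 0.0583 (Mrpl33) and 0.863 (Mrpl34). The smallest estimates were those of Mrpl19, Mrps2 and Mrpl18, each at 0.03 and picked after their values were seen. Mrps36 had 0.20 ± 0.0856 (adjusted p = 0.112).

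**Figure D2:**
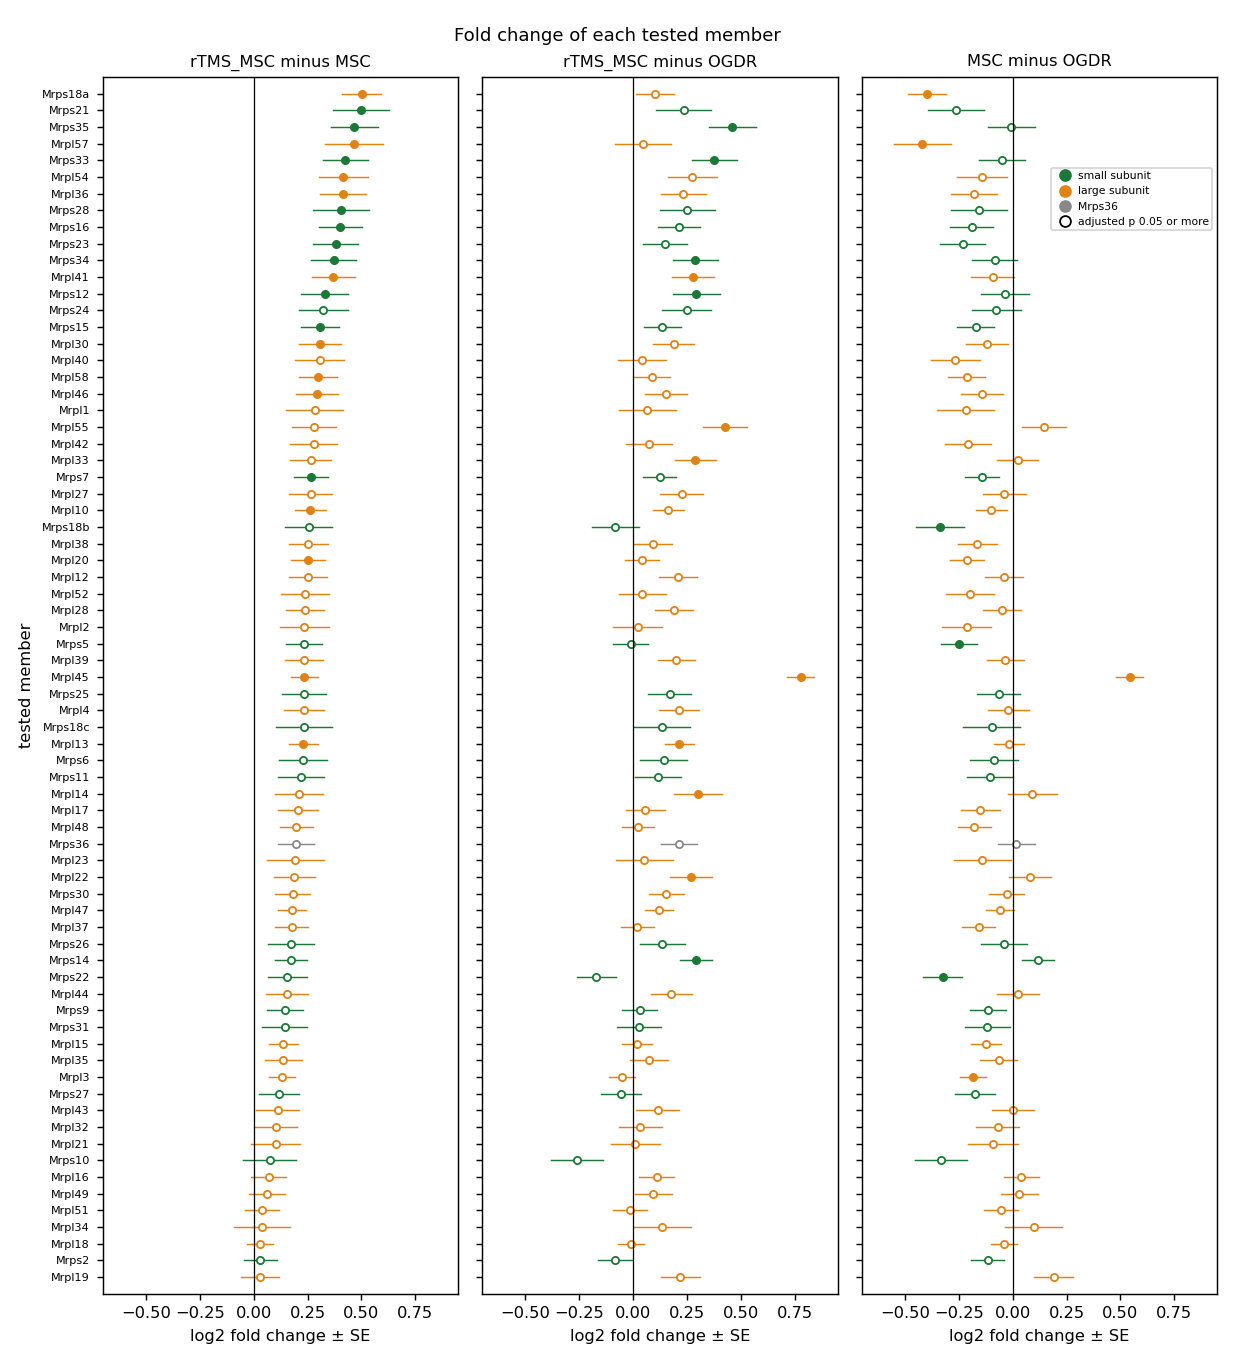
Log2 fold change ± SE (x axis) of each of the 72 tested members (y axis, ordered by rTMS_MSC minus MSC) in the 3 comparisons. Green marks the small subunit, orange the large subunit and grey Mrps36; filled points passed an adjusted p of 0.05. All points of rTMS_MSC minus MSC lie right of 0 with 22 filled, while Mrpl45 stands at 0.78 and 0.54 in the comparisons with OGDR.

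The count of risen members was lower without the libraries that stood apart. They were picked as high in rTMS_MSC and low in MSC, so leaving them out was bound to pull the estimates down as a set. It also left fewer libraries in each of these groups. Without MSC 3 and rTMS_MSC 3 together, 2 members rose, Mrps18a at 0.39 ± 0.0898 (adjusted p = 0.0107, edgeR) and Mrps35 at 0.45 ± 0.123 (adjusted p = 0.0307), and 0 fell. Fewer genes were called in all under that setting, with 154 of 13808 (1.12%) higher. The direction changed less than the calls. With both libraries left out, 68 of 72 estimates were above 0, at a median of 0.14, and the 4 below 0 were Mrpl19, Mrpl21, Mrpl34 and Mrpl49, at -0.05, -0.08, -0.07 and -0.01. Mrps21 stood at 0.29 ± 0.107 (adjusted p = 0.121), Mrps16 at 0.28 ± 0.0999 (adjusted p = 0.0976), Mrpl36 at 0.38 ± 0.119 (adjusted p = 0.0606) and Mrpl45 at 0.19 ± 0.0681 (adjusted p = 0.0974). Leaving out MSC 3 alone gave 6 risen members, rTMS_MSC 3 alone 8 and MSC 1 alone 12. Over all tested genes the share that rose was 2.04%, 3.43% and 2.85% in these settings, also below the 7.14% with all libraries.

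**Figure D3:**
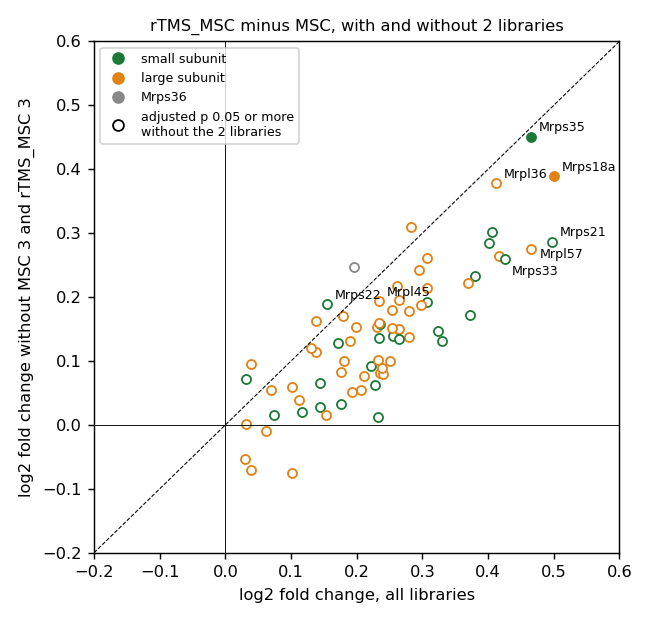
Log2 fold change of each tested member in rTMS_MSC minus MSC with all 12 libraries (x axis) and without MSC 3 and rTMS_MSC 3 (y axis), with the line of equality dashed. Filled points (Mrps18a and Mrps35) passed an adjusted p of 0.05 without those libraries; most points lie below the line, and 68 of 72 stay above 0 on the y axis.

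The comparison of rTMS_MSC with OGDR sets both treatments together against deprivation alone. Of the 72 members 12 rose, 5 of 25 in the small and 7 of 46 in the large subunit, and no member fell by the quasi-likelihood test. In this comparison 16.2% of all tested genes rose and 16.2% fell, so the share of risen members was near that of all genes and no member was among the genes that fell. At an unadjusted p under 0.05, 24 members were higher and 1 lower, beside 2880 higher and 2884 lower of all 13692 tested genes. DESeq2 called 13 members higher and 0 lower, and it called 17.0% of all tested genes higher, a share near that of the members. Estimates were above 0 for 63 of 72 members, with a median of 0.13 against 0.01 over all tested genes and a range from -0.26 to 0.78. The groups did not overlap for 13 members, all higher in rTMS_MSC, against 15.5% of all tested genes wholly above and 14.8% wholly below. Without MSC 3 and rTMS_MSC 3, 7 members rose and 1 fell, 52 of 72 estimates were above 0 and the median was 0.06. Of all tested genes 14.4% rose and 14.4% fell in that setting. The 7 include Mrps36, counted with neither subunit (0.24, adjusted p = 0.0476, edgeR). The member that fell then was Mrps10, a counterpart of bacterial S10, at -0.32 (adjusted p = 0.0467, edgeR), which with all libraries had -0.26 ± 0.120 (adjusted p = 0.104).

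Mrpl45 (ENSRNOG00000010540) had the largest estimate in this comparison. It measured 114, 118, 123 and 111 CPM in rTMS_MSC 1 to 4, with 93.01, 98.2, 96.3 and 109 CPM in MSC 1 to 4, against 72.9, 64.5, 67.2 and 67.2 CPM in OGDR 1 to 4. The 3 groups did not overlap at any point, with rTMS_MSC above MSC and MSC above OGDR in every library. Its fold change over OGDR was 0.78 ± 0.0634 in rTMS_MSC (adjusted p = 1.10e-08), and 0.75 (adjusted p = 2.38e-10) without the libraries numbered 3 of the treated groups. In the small subunit, Mrps35 measured 16.9, 18.7, 13.8 and 16.1 CPM in OGDR 1 to 4, all below its rTMS_MSC values, and rose by 0.46 ± 0.109 (adjusted p = 0.00292). Mrps14, the counterpart of bacterial S14, averaged 47.2 ± 3.18 CPM in rTMS_MSC and 38.6 ± 1.67 CPM in OGDR and rose by 0.29 ± 0.0739 (adjusted p = 0.00513). Mrps33 rose by 0.38 ± 0.105 and Mrps34 by 0.29 ± 0.103 (adjusted p = 0.00935 and 0.0380). Mrps33 and Mrps14 kept an adjusted p under 0.05 without the libraries numbered 3 (0.0224 and 0.0183), and Mrps34 did not (0.134).

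Beside Mrpl45, the large subunit members with the smallest p were Mrpl55, Mrpl13, Mrpl33, Mrpl41 and Mrpl22. Mrpl55 measured 33.5, 36.3, 47.3 and 38.4 CPM in rTMS_MSC 1 to 4, against 31.7, 30.2, 26.8 and 27.2 CPM in OGDR 1 to 4. Its groups did not overlap, and it rose by 0.42 ± 0.102 (adjusted p = 0.00346; 0.00902 without the libraries numbered 3). Mrpl13, the counterpart of bacterial L13, averaged 89.0 ± 4.58 CPM in rTMS_MSC and 76.7 ± 2.26 CPM in OGDR without overlap and rose by 0.21 ± 0.0677 (adjusted p = 0.0197). Mrpl33 rose by 0.29 ± 0.0950, Mrpl41 by 0.28 ± 0.0994 and Mrpl22, which lines the exit tunnel in its bacterial form, by 0.27 ± 0.0969 (adjusted p = 0.0252, 0.0377 and 0.0382). None of these last 3 passed without the libraries numbered 3, where their adjusted p was 0.0602, 0.146 and 0.106. The remaining 2 of the 12 were Mrps12 and Mrpl14, at 0.29 and 0.30. Mrps18a, the member with the smallest p against MSC, averaged 41.3 ± 5.81 CPM in rTMS_MSC and 38.4 ± 1.53 CPM in OGDR, and Mrpl57 20.7 ± 3.61 CPM and 20.1 ± 3.11 CPM. Both pairs of groups overlapped, with estimates of 0.10 ± 0.0881 and 0.05 ± 0.130 (adjusted p = 0.399 and 0.824). Without the libraries numbered 3, the Mrpl57 estimate was -0.08.

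**Figure D4:**
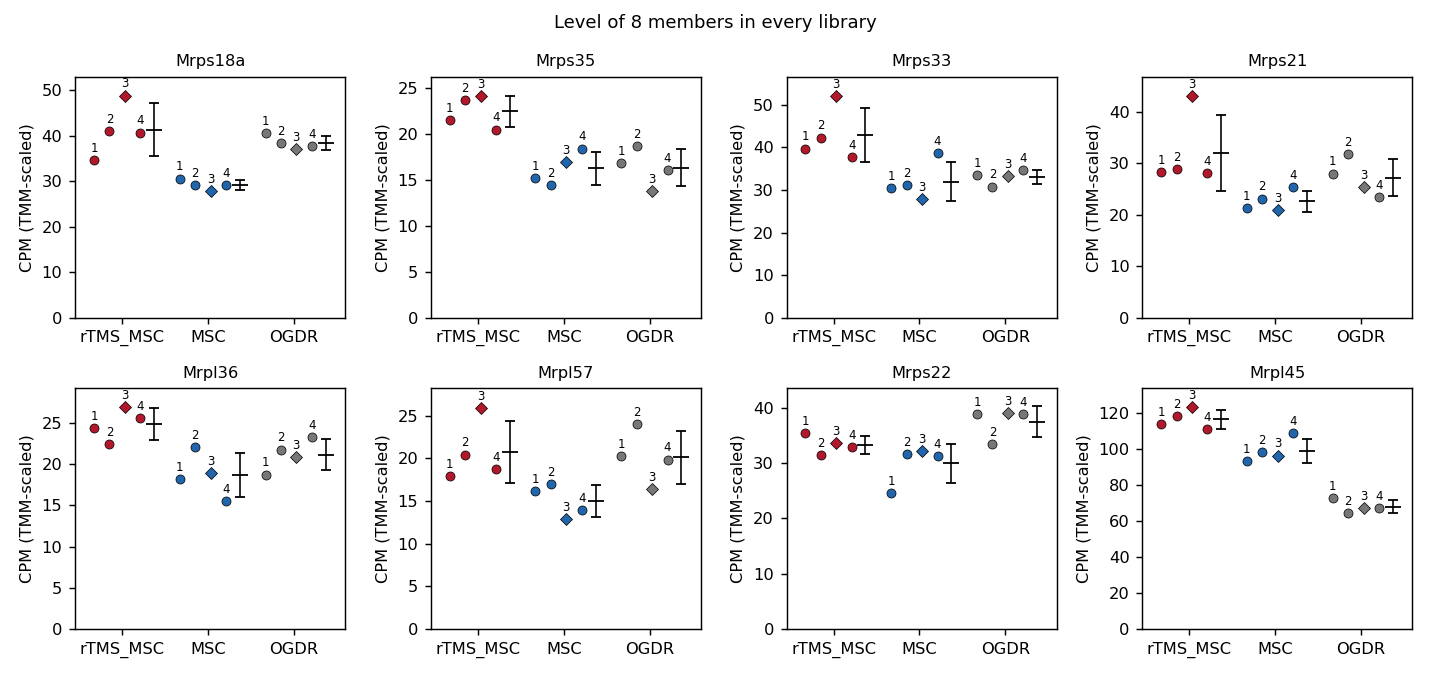
TMM-scaled CPM (y axis) of 8 members in every library of rTMS_MSC, MSC and OGDR (x axis). Points are numbered libraries, with a diamond for replicate 3, and the bar beside each group is mean ± SD (n = 4). Mrps18a and Mrpl57 are lowest in MSC, Mrpl45 is above OGDR in both treated groups, and Mrps21 in rTMS_MSC is pulled up by replicate 3 at 43.0 CPM.

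The comparison of MSC with OGDR asks what differed once stem cells were added. Here 1 member rose, Mrpl45, and 6 fell, Mrps18a, Mrps22, Mrpl57, Mrps18b, Mrpl3 and Mrps5, by the quasi-likelihood test. Across all tested genes 11.6% rose and 8.63% fell, so the share of members that fell was near that of all genes and the share that rose was below it. DESeq2 called 1 higher and 8 lower, and it called 12.6% of all tested genes higher. Estimates were below 0 for 59 of 72 members, with a median of -0.10 against -0.00 over all tested genes and a range from -0.42 to 0.54. Groups did not overlap for 1 member above and 7 below, against 13.2% and 11.5% of all tested genes. Without MSC 3 and rTMS_MSC 3, 1 member rose and 7 fell, and the median was -0.07. In that setting 12.7% of all tested genes rose and 10.0% fell, so the share of members that fell was again near that of all genes. Without MSC 3 alone, 2 members fell. The shares of all tested genes that fell by DESeq2 and without MSC 3 alone are not given here. Those 2 counts of fallen members therefore do not tell members from genes at large.

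Mrpl45 was higher in MSC by 0.54 ± 0.0635 (adjusted p = 1.90e-06), from the library values given above, and the estimate without the libraries numbered 3 was 0.56. Among the members that fell, Mrps18a measured 30.6, 29.1, 27.9 and 29.1 CPM in MSC 1 to 4, against 40.6, 38.4, 37.1 and 37.7 CPM in OGDR 1 to 4. Every MSC library was below every OGDR library, at -0.40 ± 0.0895 (adjusted p = 0.00280; 0.00131 without the libraries numbered 3). Mrps22, a mitochondria-specific small subunit protein, measured 24.6, 31.6, 32.3 and 31.3 CPM in MSC 1 to 4, against 38.8, 33.4, 39.1 and 38.8 CPM in OGDR 1 to 4. These groups did not overlap either, and it fell by 0.33 ± 0.0902 (adjusted p = 0.0132), although without MSC 1, its lowest library, the adjusted p was 0.0617. Mrpl57 measured 16.2, 17.0, 12.9 and 14.0 CPM in MSC 1 to 4, against 20.2, 24.0, 16.3 and 19.8 CPM in OGDR 1 to 4. It fell by 0.42 ± 0.133 (adjusted p = 0.0288), with OGDR 3 below MSC 2. Mrps18b averaged 30.1 ± 2.91 CPM in MSC and 38.0 ± 3.69 CPM in OGDR and fell by 0.34 ± 0.11 (adjusted p = 0.0345). Mrpl3 fell by 0.18 ± 0.0610 and Mrps5, the counterpart of bacterial S5, by 0.25 ± 0.0835 (adjusted p = 0.0377 and 0.0412). Without the libraries numbered 3, Mrpl3 no longer passed (adjusted p = 0.0676). Mrps10, Mrpl20 and Mrpl58 did not pass, at -0.33, -0.21 and -0.21 (adjusted p = 0.0555, 0.0661 and 0.0886). Mrps10 and Mrpl20 did pass without the libraries numbered 3 (adjusted p = 0.0448 and 0.0452).

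Mrps18a and Mrpl57 were the members that passed in opposite directions, lower in MSC than in OGDR and higher in rTMS_MSC than in MSC. These comparisons share the MSC libraries, so a low level in those libraries enters both. Mrpl45 was the only member that passed in all 3 comparisons, higher in rTMS_MSC than in MSC and higher in both than in OGDR.

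**Figure D5:**
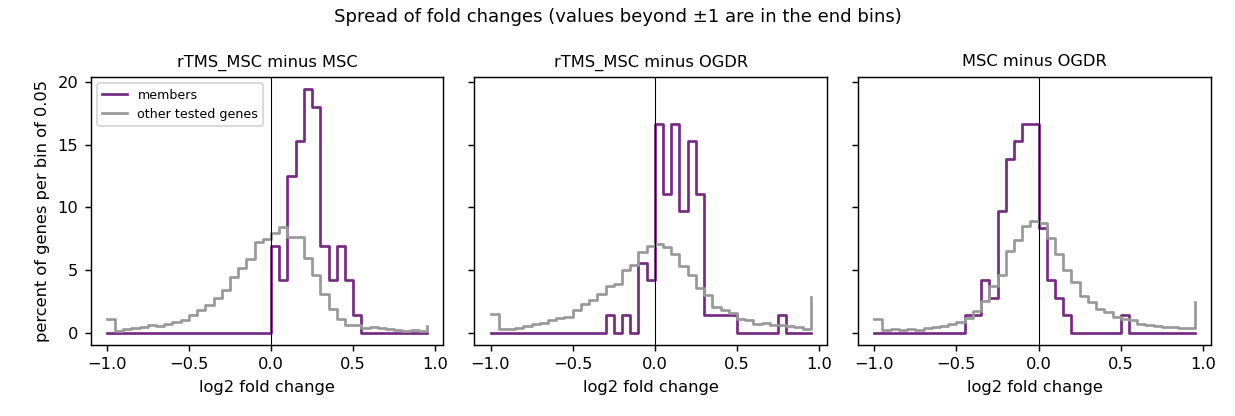
Share of genes (y axis, percent per bin of 0.05) by log2 fold change (x axis) for the 72 tested members and the other tested genes in the 3 comparisons. The members form a narrow peak right of 0 in rTMS_MSC minus MSC (median 0.23) and left of 0 in MSC minus OGDR (median -0.10).

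Genes that work with the mitoribosome were counted by lists. For comparison with every list below, 7.14% of all tested genes rose and 10.9% fell in rTMS_MSC against MSC. The shares were 16.2% and 16.2% in rTMS_MSC against OGDR, and 11.6% and 8.63% in MSC against OGDR. Mitoribosomal proteins that carry other names (Dap3, Ptcd3, Chchd1 and Gadd45gip1 were tested) gave 1 rise among 4 in rTMS_MSC over MSC, in Dap3, a GTP-binding protein of the small subunit (84.0 ± 7.77 CPM in rTMS_MSC and 71.7 ± 4.14 CPM in MSC; 0.23 ± 0.0708, adjusted p = 0.0321, edgeR). Dap3 did not pass without the libraries numbered 3 (0.17, adjusted p = 0.190). Rows written in lower case, mrpl9, mrpl11 and mrpl24, fell outside the symbol rule. Of these mrpl11 rose in rTMS_MSC over MSC (0.30, adjusted p = 0.0363, edgeR) and mrpl24 fell in MSC against OGDR (-0.30, adjusted p = 0.0151). Without the libraries numbered 3, mrpl11 no longer passed (0.20, adjusted p = 0.287) and mrpl24 did (adjusted p = 0.0321). For 31 tested assembly factors of the mitoribosome, the median in rTMS_MSC minus MSC was 0.10, and 0 rose and 0 fell by edgeR, against 8 higher and 0 lower at an unadjusted p under 0.05 and 2 and 0 by DESeq2. Against OGDR, 4 of the 31 assembly factors rose and 2 fell in rTMS_MSC, both smaller shares than among all tested genes. The smallest p belonged to Mpv17l2 (0.50, with 30.0 ± 4.20 CPM in rTMS_MSC and 21.2 ± 1.49 CPM in OGDR). Next came Rbfa, which binds the small subunit RNA (0.46 ± 0.0956), and the RNA-binding protein Fastkd2 (0.43 ± 0.0949). Their adjusted p was 0.000741, 0.00111 and 0.00189 (edgeR). In MSC against OGDR 1 rose and 3 fell, including Lonp1, the matrix protease, at -0.30 ± 0.0521 (adjusted p = 0.000274, edgeR).

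Of 20 translation and membrane insertion factors, 2 rose and 0 fell in rTMS_MSC over MSC (8 and 0 at an unadjusted p under 0.05, 3 and 0 by DESeq2). They were Slirp, which binds mitochondrial messenger RNA (65.4 ± 3.82 CPM in rTMS_MSC and 51.0 ± 6.35 CPM in MSC; 0.36 ± 0.0800, adjusted p = 0.00600), and Oxa1l, the insertase that receives new chains (0.23 ± 0.0685, adjusted p = 0.0267). Without the libraries numbered 3, Slirp passed (adjusted p = 0.0152) and Oxa1l did not (0.14, adjusted p = 0.241). Lrpprc, the partner of Slirp, was lower than in OGDR in both treated groups, at 105 ± 5.72 CPM in rTMS_MSC and 106 ± 3.35 CPM in MSC, against 131 ± 8.42 CPM in OGDR (-0.32 ± 0.0600 and -0.30 ± 0.0600, adjusted p = 0.000440 and 0.00103). Tufm, the elongation factor Tu of mitochondria, rose in rTMS_MSC over OGDR by 0.22 ± 0.0718 (adjusted p = 0.0214; 0.0661 without the libraries numbered 3). Among 17 mitochondrial aminoacyl-tRNA synthetases and amidotransferase genes, 0 rose and 0 fell in rTMS_MSC against MSC (2 and 0 at an unadjusted p under 0.05, 1 and 0 by DESeq2), with a median of -0.00. Against OGDR, 3 of these fell in rTMS_MSC and 4 in MSC, among them Qrsl1, a subunit of the glutamyl-tRNA amidotransferase, by 0.44 ± 0.102 and 0.56 ± 0.103 (adjusted p = 0.00252 and 0.000385). Of 19 genes for replication, transcription and RNA processing in mitochondria, 1 rose in rTMS_MSC over MSC, Hsd17b10, a subunit of the mitochondrial RNase P (0.24 ± 0.0832, adjusted p = 0.0469). It did not pass without the libraries numbered 3 (0.13, adjusted p = 0.359). Another subunit of that enzyme, Trmt10c, fell against OGDR by 0.39 ± 0.0892 in rTMS_MSC and 0.42 ± 0.0894 in MSC (adjusted p = 0.00213 and 0.00164).

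The 13 messenger RNAs that the mitoribosome translates were also measured, although oligo(dT) capture limits how their levels can be read. Summed, they were 30930 ± 1652 CPM in rTMS_MSC, 27416 ± 2126 CPM in MSC and 33973 ± 1985 CPM in OGDR. In rTMS_MSC against MSC 5 rose and 0 fell (9 and 1 at an unadjusted p under 0.05, 5 and 0 by DESeq2, and 5 and 0 without the libraries numbered 3), with Mt-nd3 at 0.40 ± 0.0708 (adjusted p = 0.00178). In rTMS_MSC against OGDR 0 rose and 7 fell, with the smallest p in Mt-nd4l (-0.62 ± 0.121, adjusted p = 0.000622), while in MSC against OGDR 0 rose and 12 fell, with the smallest p in Mt-atp6 (-0.43 ± 0.0621, adjusted p = 2.56e-05). The lowest rTMS_MSC library for this sum was rTMS_MSC 3 at 29435 CPM, the library in which most members were highest. Cytosolic ribosomal protein genes, set beside the members, had 73 tested rows, of which 54 rose in rTMS_MSC over MSC, with a median of 0.27. Without the libraries numbered 3, 8 rose and the median was 0.14. In rTMS_MSC against OGDR 1 rose and 0 fell at a median of 0.05, whereas without the libraries numbered 3 the direction turned, with 0 risen, 6 fallen and a median of -0.06. In MSC against OGDR 33 fell at a median of -0.23. The summed level of these genes was 35913 CPM in rTMS_MSC 3 and 27521 to 29806 CPM in the other rTMS_MSC libraries, and it was lowest of all in MSC 3, at 23865 CPM. Whether this shift between libraries has a part in the counts of risen members was not tested.

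Factors tied to mitochondrial biogenesis were mixed, and the 3 with the smallest p in each comparison are given. Of 13 tested, 1 rose and 3 fell in rTMS_MSC against MSC, while without the libraries numbered 3, 1 rose and 0 fell. Myc, a transcription factor known for driving ribosome production, rose by 0.35 ± 0.0756 (58.6 ± 1.27 CPM in rTMS_MSC and 46.0 ± 5.19 CPM in MSC, adjusted p = 0.00498, edgeR; 0.0186 without the libraries numbered 3). Yy1, whose motif was searched above, fell by 0.32 ± 0.0758 (40.3 ± 2.97 CPM in rTMS_MSC and 50.5 ± 3.61 CPM in MSC, adjusted p = 0.00729). Prkaa2, a catalytic subunit of AMP-activated kinase, fell by 1.09 ± 0.233 (2.88 ± 0.369 CPM in rTMS_MSC and 6.15 ± 2.12 CPM in MSC, adjusted p = 0.00476). Neither Yy1 nor Prkaa2 passed without the libraries numbered 3, at -0.27 and -0.75 (adjusted p = 0.0638 and 0.0541). In rTMS_MSC against OGDR 1 rose and 3 fell. Tfeb, a transcription factor of lysosomal genes, rose by 0.51 ± 0.107, whereas Pprc1, a coactivator of NRF1, fell by 0.36 ± 0.0644 and Prkaa1, the other catalytic subunit of AMP-activated kinase, fell by 0.44 ± 0.114 (adjusted p = 0.00104, 0.000264 and 0.00613). In MSC against OGDR 2 rose and 1 fell. Tfeb rose by 0.38 ± 0.107 and Yy1 by 0.22 ± 0.0755, and Myc fell by 0.29 ± 0.0756 (adjusted p = 0.0146, 0.0434 and 0.00773), with Yy1 at an adjusted p of 0.103 without the libraries numbered 3.

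Some members share a start region with a neighbour. In the RefSeq annotation 18 members had a gene on the opposite strand that began within 1000 bases and pointed away, and 17 such partners were tested. In rTMS_MSC minus MSC 2 partners rose and 0 fell, with a median of 0.08, while 7.14% of all tested genes rose and 10.9% fell. The partners include the members Mrpl46 and Mrps11, each the partner of the other, and Fau from the cytosolic ribosomal list. Those that rose were Psma2, a proteasome subunit that begins 210 bases from Mrpl32, at 0.25 (adjusted p = 0.00515, edgeR), and Mrpl46, which begins 234 bases from Mrps11. Mrpl32 had 0.10 (adjusted p = 0.498), so the pair differed in its calls, and the difference between them was not tested. Mrpl46 and Mrps11 had 0.29 and 0.22 (adjusted p = 0.0418 and 0.150). No strand setting for the counting was found in the labels, so reads from overlapping genes on opposite strands cannot be told apart.

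The other 3 member rows were not tested because of few counts, and they are uncertain where a near-identical copy could share reads. Both rows named Mrps17 (ENSRNOG00000000926 and ENSRNOG00000066020) had 93 and 70 counts over all libraries, with 0.602 ± 0.377 CPM and 0.348 ± 0.101 CPM in rTMS_MSC, 0.302 ± 0.140 CPM and 0.277 ± 0.178 CPM in MSC, and 0.283 ± 0.184 CPM and 0.276 ± 0.182 CPM in OGDR. Mrps21l, a like-named relative of Mrps21, had 5 counts in all. The estimated spread between replicates had a median biological coefficient of variation of 0.0918 for the members and 0.0950 for all tested genes, members included. edgeR draws these estimates towards a trend shared by all genes, so some likeness is built in. Being made per gene, they do not show a shift that members share in a library.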

How the data were processed

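RNA was extracted with TRIzol, captured with oligo(dT) and primed at random, per the labels' protocols. Per the submitters' processing notes, HISAT2 2.1.0, HTSeq 0.11.2, DESeq2 1.40.1 and build mRatBN7.2 were used, and the authors deposited raw counts per gene. The labels give 12 sequencing libraries, although the series text names 20 samples and an array. Lines for reads on no feature (51.7% to 52.7% of all reads) were left out.

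Counts were analysed in R 4.3.3 with edgeR 4.0.16. Genes passed filterByExpr (minimum count 10, minimum total 15; 13692 of 20776 with a count), TMM set the scaling, and a single quasi-likelihood fit held all 12 libraries with 1 coefficient for each group. The 2-sided p-values were adjusted by the Benjamini-Hochberg method across every gene tested, and SE is the fold change over the root of F. The members and lists were chosen with earlier results of these data known. Named with values were the 10 members with the smallest p per comparison and direction (or the 10 smallest p where fewer than 10 passed), the 5 with the highest and lowest mean CPM, untested members and members past the threshold in opposite directions. The cytosolic ribosomal list took symbols of the usual form and left out ribosomal S6 kinases and like-named relatives. Median ratio and upper quartile scaling, no filter, DESeq2 1.42.0, the 8 compared libraries, a replicate block and left-out libraries were tried. The test was checked on simulated counts with independent genes, the same spread for every gene and no library that stood apart. That check therefore does not cover shifts shared by many genes of a library. Motif matches came from RefSeq windows on GRCr8, a build other than that of the counts, matched by symbol.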

Additional observations from a re-analysis of the deposited data

Results flagged for a closer look

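Libraries were looked at for named members whose highest or lowest value in a group of 4 stood apart by more than Dixon's critical value. Of 99 groups examined, 9 did so, and chance flags about 1 in 20. Mrps16 (34.6 CPM), Mrps21 (43.0 CPM), Mrps23 (50.6 CPM) and Mrps7 (121 CPM) were high in rTMS_MSC 3. These 4 members rose in rTMS_MSC over MSC, and none passed without MSC 3 and rTMS_MSC 3. Only 2 of the 22 risen members passed in that setting, so this does not set the 4 apart. Mrps16 in MSC 1 (23.6 CPM) and Mrps18b in MSC 2 (34.4 CPM) were high. Mrps22 was low in MSC 1 (24.6 CPM) and in OGDR 2 (33.4 CPM), and Mrpl34 was low in OGDR 4 (10.9 CPM).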

How the results depend on the processing

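The median fold change of the members kept its sign in all 3 comparisons under every alternative run. With single libraries left out it ran from 0.17 to 0.27 in rTMS_MSC minus MSC, from 0.06 to 0.16 in rTMS_MSC minus OGDR and from -0.13 to -0.07 in MSC minus OGDR. Counts of calls moved more. In rTMS_MSC minus MSC, risen members numbered 22 with median ratio scaling, 30 with upper quartile scaling and 26 with no filter. They numbered 33 with DESeq2 and 16 in a fit of the 8 libraries. Over all tested genes the shares that rose in these settings were 7.19%, 8.84%, 4.94%, 9.65% and 4.23%, in that order. Risen members ranged from 6 to 32 with single libraries left out, where 2.04% to 9.75% of all tested genes rose. They were 2 without MSC 3 and rTMS_MSC 3 together, where 1.12% of all tested genes rose. In rTMS_MSC minus OGDR risen members ranged from 6 (without OGDR 3) to 14 with single libraries left out, with 7 each without OGDR 4 or rTMS_MSC 3, and members that fell from 0 to 1 (without OGDR 1). Without both libraries numbered 3, 7 rose and 1 fell, while 14.4% of all tested genes rose and 14.4% fell. In MSC minus OGDR members that fell ranged from 2 (without MSC 3) to 6, with 3 each without MSC 1, OGDR 2 or OGDR 4, and 1 rose in every setting. The ranges against OGDR are given without the shares over all tested genes, so they do not tell members from genes at large. The cause of these moves was not tested. Same-numbered libraries correlated at r of -0.21 to 0.13, with 1 of 12 pairs over 0.1. Between MSC and OGDR the same-numbered pairs were all above 0, at r of 0.03, 0.09, 0.13 and 0.08 for numbers 1 to 4. Differently numbered pairs of these groups ran from -0.10 to 0.08. Over all comparisons they ran from -0.18 (rTMS_MSC 4 with MSC 2) to 0.24 (rTMS_MSC 3 with MSC 2), so r of this size also arose between unlike numbers. Whether the numbers pair the samples was not tested. With a replicate block, 19 members rose in rTMS_MSC minus MSC and 9 in rTMS_MSC minus OGDR, and 6 fell in MSC minus OGDR. With that block 5.30% of all tested genes rose in rTMS_MSC minus MSC and 15.3% in rTMS_MSC minus OGDR. Of the estimates of named members recomputed, those of 2 members that had not passed changed sign. Mrpl34 in rTMS_MSC minus MSC was at -0.070 without both libraries numbered 3 and ran from -0.038 (without MSC 3) to 0.18 with single libraries left out, below 0 also without MSC 2 (-0.033). Mrpl57 in rTMS_MSC minus OGDR was at -0.079 without both libraries numbered 3 and ran from -0.078 (without rTMS_MSC 3) to 0.14, below 0 also without OGDR 3 (-0.042).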
